A study of Mus musculus with 2 samples.

Results

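The Khdc1 genes are small neighbouring paralogs on mouse chromosome 1 that encode KH domain proteins. *Khdc1a*, *Khdc1b* and *Khdc1c* were taken by symbol from the expression files of control and Eomes-overexpressing OT-I cells, 3 genes of 14732 listed in at least 1 library. They were chosen by their large FPKM ratio of Eomes-overexpressing over control cells, so their levels and ratios describe these libraries and were not tested. No other listed symbol begins with Khdc1.

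OT-I cells are CD8+ T cells of OT-I transgenic C57BL/6 mice, which carry a transgenic T cell receptor for the SIINFEKL peptide of OVA. Cells from spleen and lymph nodes of mice aged 6 to 8 weeks were activated with 2.5 ng/mL of the peptide and 10 U/mL IL-2 for 24 h. They were then infected with the retroviral vector RVKM carrying Eomes and an IRES-hCD2 cassette, or with the same vector without Eomes (control). The hCD2+ cells of both cultures were sorted 48 h later, placed at 40000 cells per well and stimulated again, with unchanged doses, for 3 days, after which total RNA was sequenced. Each condition was sequenced as 1 library, the question being what a high amount of Eomes does to transcript levels, and none of the differences below has a replicate check. Both cultures carry the vector and hCD2, and cells that failed to take up the vector were removed by the sort.

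The KH domain is a fold that binds single-stranded RNA. In the mouse, Khdc1 proteins are known mainly from oocytes and early embryos, together with the related genes *Khdc3*, *Ooep* and *Dppa5a*. *Khdc1a* is listed by RefSeq under the older name *Ndg1*, for Nur77 downstream gene, since it was first described as a gene induced by the nuclear receptor Nur77 (encoded by *Nr4a1*) in thymocytes. The protein of *Khdc1a* has been described at the endoplasmic reticulum, where it lowers translation.

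In the GENCODE vM21 annotation of mm10, the build of the deposited values, the 3 genes lie on the plus strand within 36.7 kb. *Khdc1a* (ENSMUSG00000067750.3) spans chr1:21349641-21352200, *Khdc1c* (ENSMUSG00000041722.7) chr1:21368331-21370845 and *Khdc1b* (ENSMUSG00000085079.3) chr1:21383556-21386373. Each gene has 3 exons and 1 annotated transcript, of 1987, 1946 and 2236 bases, respectively. The gaps between them, 16.1 kb and 12.7 kb, hold 4 annotated pseudogenes (*Gm16329*, *Gm16327*, *Gm2709* and *Gm16533*), and 0 of these had a listed value. The symbols *Khdc1b* and *Khdc1c* each appear among the RefSeq synonyms of the other gene, and the files give symbols only, so the assignment of these 2 symbols rests on current naming.

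**Figure D1:**
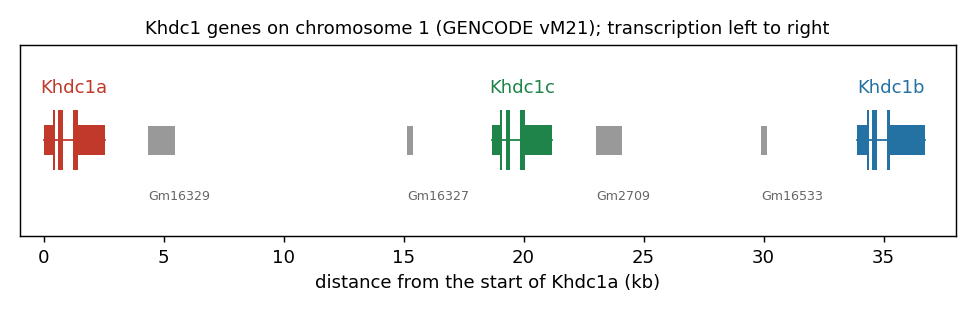
Map of the Khdc1 genes, with the distance from the start of *Khdc1a* in kb on the horizontal axis. Thick blocks are coding parts of exons, thinner blocks are untranslated parts, lines are introns and grey blocks are annotated pseudogenes. The 3 genes share the same order of 3 exons and the same strand.

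The coding sequences show how alike these genes are, which bears on every value below. *Khdc1a* and *Khdc1c* have 501 coding bases each, stop codon included, and 500 of them are identical. The only difference is T416C, counted from the first base of the start codon, with *Khdc1a* as the reference. The end of both coding sequences, from base 361 to 501, is shown because it holds that difference, which is in capitals.
Khdc1a: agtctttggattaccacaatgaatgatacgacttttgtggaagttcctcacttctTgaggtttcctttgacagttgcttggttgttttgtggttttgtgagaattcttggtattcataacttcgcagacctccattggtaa
Khdc1c: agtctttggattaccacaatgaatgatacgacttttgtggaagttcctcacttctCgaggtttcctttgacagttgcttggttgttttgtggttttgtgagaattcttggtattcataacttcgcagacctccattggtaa

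*Khdc1b* is shorter, with 381 coding bases including its stop codon, or 126 codons against 166 in the others. When aligned with *Khdc1a*, 354 of those 381 bases were identical (92.9%) and 27 differed. That alignment skips a base of *Khdc1a* near the end, which is not among the 27. Its bases 241 to 381 hold 22 of the 27 differences and are shown beside the same bases of *Khdc1a*. Capitals mark the bases of *Khdc1b* that differ from the aligned base of *Khdc1a*, and the last 3 bases of *Khdc1b* are its stop codon. The alignment skips the a after gcagtctttgg in *Khdc1a*. From there on, each base of *Khdc1b* is compared with the *Khdc1a* base at the next position to the right, which for the last base is not shown.
Khdc1b: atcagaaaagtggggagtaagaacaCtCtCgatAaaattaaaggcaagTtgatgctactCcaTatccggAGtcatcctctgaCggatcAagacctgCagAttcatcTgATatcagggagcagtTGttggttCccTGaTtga
Khdc1a: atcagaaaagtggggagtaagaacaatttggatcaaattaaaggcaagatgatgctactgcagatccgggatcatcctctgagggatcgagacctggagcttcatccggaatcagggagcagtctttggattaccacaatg

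Reads from identical stretches cannot be assigned to a single gene by sequence. Of the 50-base stretches in the *Khdc1a* transcript, 42.2% also occur in *Khdc1c* and 4.13% in *Khdc1b*. The overlap was highest in the coding part, where 88.9% of the stretches of *Khdc1a* and of *Khdc1c* occur in another gene. In the 3' untranslated part it was 15.8% for *Khdc1a*, 15.6% for *Khdc1c* and 0% for *Khdc1b*. Over the whole transcript of *Khdc1b*, 3.66% of the stretches are shared. The pseudogene *Gm2709* was the only other gene with such stretches, 2.43% of those of *Khdc1a*.

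The length of the stretch matters for *Khdc1b* in particular. With 100-base stretches, 26.5% of *Khdc1a* and 27.1% of *Khdc1c* were shared and 0% of *Khdc1b*. RefSeq ends *Khdc1c* 1102 bases before GENCODE does, which leaves 844 bases of the transcript, and of the 50-base stretches up to that end 79.1% occur in *Khdc1a*. The read length and the gene annotation behind the deposited values were not given in the sources used here. The values of *Khdc1a* and *Khdc1c* are therefore given singly and as a sum. *Khdc1b* is largely separate by sequence, but 4.13% of the 50-base stretches of *Khdc1a* and 2.90% of those of *Khdc1c* occur in it. Both of those genes were far higher in level, so reads of theirs could make up part of the *Khdc1b* value. The size of that part was not tested.

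**Figure D2:**
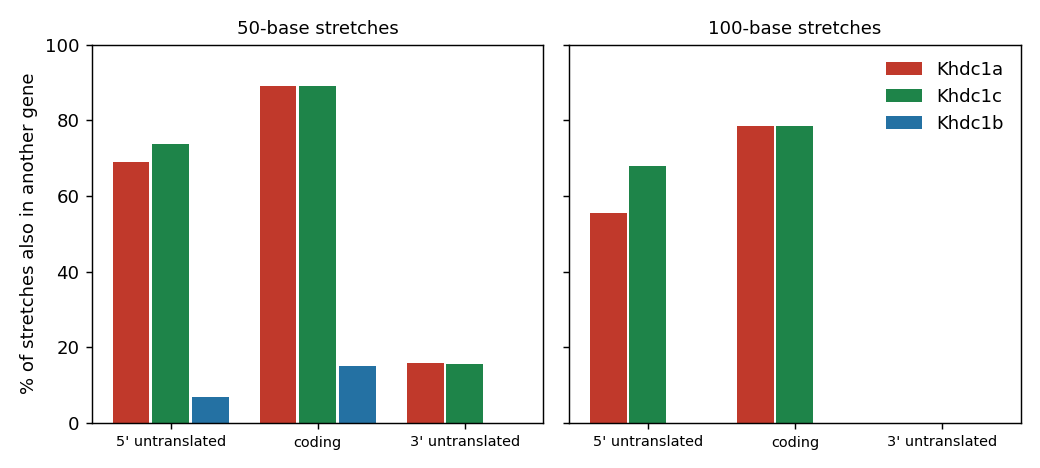
Percent of the 50-base (left) and 100-base (right) stretches of each Khdc1 transcript that also occur in a transcript of another gene, by part of the transcript. Bars start at 0. The coding parts of *Khdc1a* and *Khdc1c* reach 88.9% for 50 bases and 78.6% for 100 bases, and *Khdc1b* stays at 15.1% or less.

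All 3 Khdc1 genes had a much higher transcript level in Eomes-overexpressing than in control OT-I cells. The values are FPKM, in which the authors scaled fragment numbers to transcript length and library depth, and log2 ratios are Eomes-overexpressing over control. The targeted gene comes first as a check of the labels. *Eomes*, the T-box transcription factor carried by the vector, was at an FPKM of 2.47 in the control library and at 129.64 in the other, and this value does not separate vector transcripts from those of the cells' own gene. In bulk RNA, a change in the number of cells that express a gene and a change in its RNA per cell cannot be told apart.

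*Khdc1a* had a control FPKM of 0.86 and an FPKM of 20.9 with Eomes overexpression. That is 24.3-fold, a log2 ratio of 4.60. The control value lay under an FPKM of 1, a level often taken as the limit of expression, and 29.3% of the listed genes of that library were lower. With Eomes overexpression 73.7% of the listed genes were lower.

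*Khdc1c* had a control FPKM of 1.23, against 22.37 with Eomes overexpression. Its log2 ratio was 4.18, or 18.2-fold. This placed it next to *Khdc1a* in both libraries. The ratio of *Khdc1a* to *Khdc1c* was 0.699 in the control library and 0.934 in the Eomes-overexpressing library, on the FPKM scale.

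*Khdc1b* was hardly detected in control, at an FPKM of 0.07, and reached 1.83 in Eomes-overexpressing cells. Its log2 ratio was 4.71 (26.1-fold), at by far the lowest level. The place of this ratio among the 3 depends on how low values are treated: it was the highest with the floor of 0.01 and the lowest, at 3.50 against 4.45 for *Khdc1a* and 4.08 for *Khdc1c*, with a pseudocount of 0.1. As values are printed with 2 decimals, rounding alone allows 24.3-fold to 28.2-fold. In control *Khdc1b* was 12.3-fold lower than *Khdc1a*, and in Eomes-overexpressing cells 11.4-fold lower. The control side rests on about 3 reads of *Khdc1b* (read numbers are given below). Whether the 2 genes stood equally far apart in both libraries can therefore not be told.

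Summed over the 3 genes, FPKM was 2.16 in the control library and 45.1 in the other (log2 ratio 4.38). The sum of *Khdc1a* and *Khdc1c*, which for equal lengths does not depend on how shared reads were divided, was 2.09 and 43.27 (log2 ratio 4.37). *Khdc1c* held 56.9% of the 3-gene sum in control and 49.6% with Eomes overexpression, *Khdc1a* 39.8% and 46.3%, and *Khdc1b* 3.24% and 4.06%. The order *Khdc1c*, *Khdc1a*, *Khdc1b* was thus the same in both libraries. FPKM divides by transcript length, and which model of *Khdc1c* was used is not known, so the order of *Khdc1c* and *Khdc1a* in level is uncertain. With the shorter model of *Khdc1c*, the sum of *Khdc1a* and *Khdc1c* would also depend on how shared reads were divided.

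**Figure D3:**
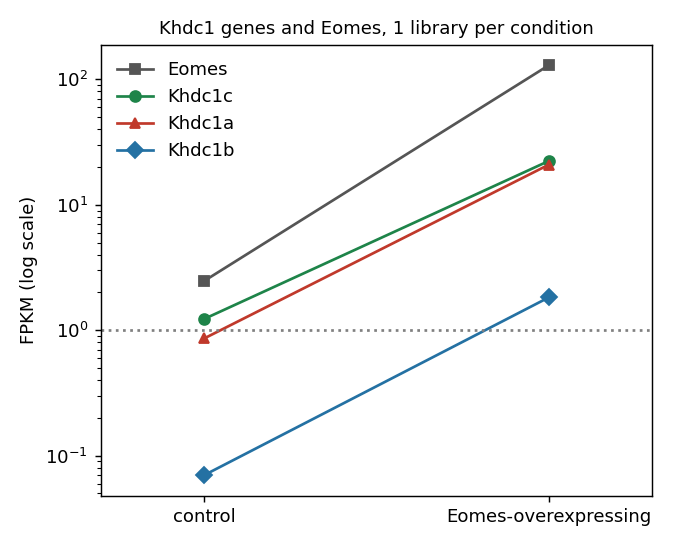
FPKM (log scale) of *Eomes* and the 3 Khdc1 genes in the control and the Eomes-overexpressing library, 1 point per library. The dotted line is an FPKM of 1. *Khdc1a* and *Khdc1b* lie under it in control, at 0.86 and 0.07, and all 3 genes lie above it with Eomes overexpression, at 1.83 to 22.37.

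The numbers of reads behind these values set how closely the ratios can be compared. Low FPKM values were treated as whole reads divided by length and depth, which values computed with RSEM need not be. The depth at which they best matched whole reads was 19300000 reads for both libraries. It rests on 102 and 109 low genes, of which 45.1% and 43.1% were whole within 0.006 FPKM, against 29.4% and 30.3% at the median of all depths tried, so reads are approximate. *Khdc1a* then had about 33 control reads and 801 reads with Eomes overexpression, *Khdc1c* 46 and 840, and *Khdc1b* 3 and 79, with GENCODE lengths. For *Khdc1c* cut at its RefSeq end the numbers are 20 and 364.

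On these reads, the 95% exact binomial (Clopper-Pearson) interval of the log2 ratio was 4.10 to 5.15 for *Khdc1a*, 3.76 to 4.65 for *Khdc1c* and 3.12 to 7.03 for *Khdc1b*. With the shorter *Khdc1c* it was 3.54 to 4.91. The intervals cover counting error only and compare these libraries, not the conditions. The widest belongs to *Khdc1b*, whose control value is about 3 reads. All 3 intervals overlap. Those of *Khdc1a* and *Khdc1c* treat their reads as separate counts, although 42.2% of the 50-base stretches of *Khdc1a* also occur in *Khdc1c*.

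Against all genes, the ratios of the Khdc1 genes stood near the top of the order. A gene counted as expressed when 1 or both libraries gave an FPKM of 1 or more, which 9925 genes did. *Khdc1a* and *Khdc1b* pass this limit only through the Eomes-overexpressing library, so they had to differ. All 3 Khdc1 genes were more than 1.5-fold higher, the fold threshold of the study, beside 2.46% of expressed genes (244), and all 3 were more than 10-fold higher, beside 0.0705% (7), while 0.0403% were more than 10-fold lower. Since the genes were chosen for this contrast, nothing is read from these counts.

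The median log2 ratio over the Khdc1 genes was 4.60, and over all expressed genes -0.0037 (25th to 75th percentile -0.15 to 0.16). Ordered by log2 ratio, *Khdc1b* was at place 3, *Khdc1a* at 4 and *Khdc1c* at 6, after *Eomes* at 1 and *Gzmk* at 2. Among the 1005 expressed genes with a control FPKM under 2, 3 reached 20 or more in Eomes-overexpressing cells, namely *Gzmk*, *Khdc1c* and *Khdc1a*. That pair of limits was chosen after the values were seen.

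**Figure D4:**
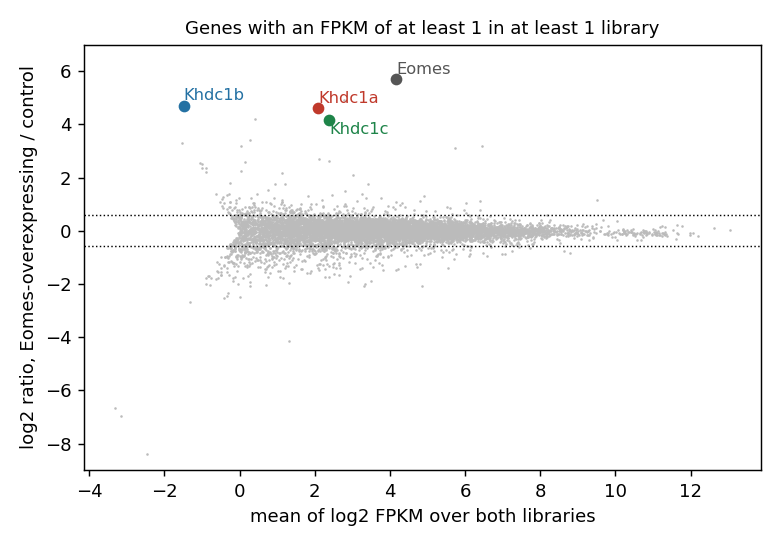
Log2 ratio (Eomes-overexpressing over control) against the mean log2 FPKM of both libraries for the 9925 expressed genes, with *Eomes* and the Khdc1 genes in colour. Dotted lines mark 1.5-fold. The Khdc1 genes lie at log2 ratios of 4.18 to 4.71, with *Khdc1b* far to the left of the others, at a lower mean level.

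*Gzmk* and *Klrb1c* were the genes with a log2 ratio nearest to the Khdc1 median. With 2 libraries, likeness here is only the closeness of a single log2 ratio. *Gzmk*, which encodes granzyme K, a serine protease of cytotoxic granules, was at an FPKM of 1.25 and 38.23 and a log2 ratio of 4.93. *Klrb1c*, which encodes the natural killer cell receptor NK1.1, was at 0.31 and 5.74 (log2 ratio 4.21). *Eomes* itself followed, and *Mcpt8*, a basophil protease gene, was at 0.37 and 3.94 (3.41).

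The other 6 of the 10 nearest genes were farther away, with log2 ratios of 2.64 to 3.30. They were *Fcrl6*, *Gzmd*, *2900011O08Rik*, *Gzme*, *H2-Q10* and *Gzmg*. *Gzmd* (FPKM 28.68 and 263.98) and *Gzme* (18.14 and 157.74) reached much higher levels than the Khdc1 genes. Beyond *Gzmk*, *Klrb1c* and *Eomes*, the next gene was 1.19 from the Khdc1 median on the log2 scale.

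The expressed genes around the Khdc1 genes had log2 ratios between -0.53 and 0.45. Of 41 other genes annotated within 1 Mb on either side, 8 had a listed value and 4 were expressed. *Mcm3*, a subunit of the replicative helicase, was at an FPKM of 171.15 (control) and 174.95 (Eomes). *Kcnq5*, a potassium channel gene on the opposite strand whose near end is 12.03 kb from *Khdc1b*, was at 1.43 and 1.94 (log2 ratio 0.44).

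*Tmem14a*, which encodes a small membrane protein, lies 119.5 kb away on the other side and was at 1.46 and 1.99 (log2 ratio 0.45). *Tram2*, 270.4 kb away, was at 1.43 and 0.99 (-0.53). None of these 4 genes (0 higher and 0 lower) passed 1.5-fold, beside 2.46% higher and 5.19% lower among all expressed genes, shares at which a count of 0 says little about 4 genes. Of the other listed neighbours, *Il17a*, *Il17f* and *Paqr8* were under an FPKM of 0.5 in both libraries, and the cytokine genes *Il17a* (0.26) and *Il17f* (0.09) were listed in control only, at levels too low for a ratio. These 3 genes were named after their values were seen.

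**Figure D5:**
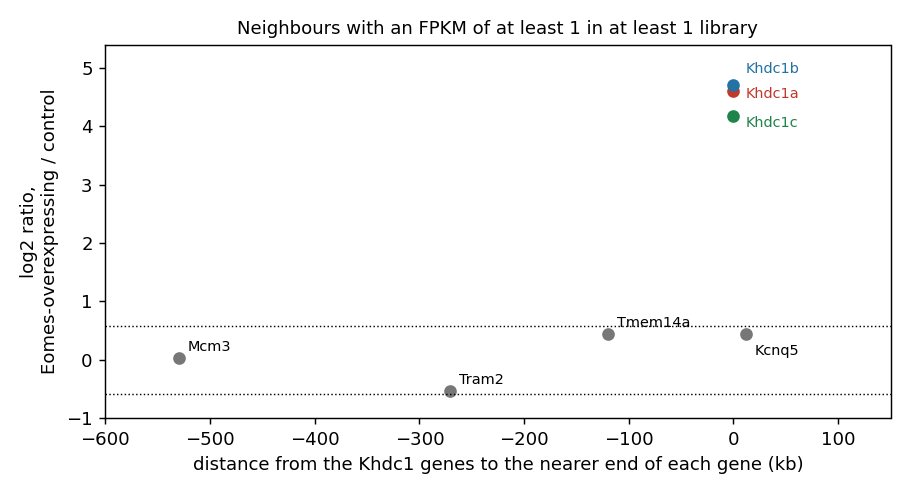
Log2 ratio (Eomes-overexpressing over control) of the 4 expressed neighbours and the 3 Khdc1 genes, against the distance in kb from the Khdc1 genes to the nearer end of each gene. Dotted lines mark 1.5-fold. The neighbours lie between -0.53 and 0.45, and the Khdc1 genes, placed at 0 kb, between 4.18 and 4.71.

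The related KH genes and most genes of the oocyte list were under an FPKM of 1 or had no listed value. Of the 3 related KH genes, *Khdc3* was at an FPKM of 0.15 (control) and 0.27 (Eomes), *Ooep* at 0.33 and 0.18, and *Dppa5a* had no listed value. *Khdc3* and *Ooep* belong to the maternal complex below the egg membrane. Of 20 oocyte and early embryo genes 8 were listed and 2 were expressed, *Tle6* (1.45 and 0.98) and *Zbed3* (13.1 and 14.23), with neither past 1.5-fold, which says little beside shares of 2.46% higher and 5.19% lower over all expressed genes. The other 12 had no listed value, among them the egg coat genes *Zp1*, *Zp2* and *Zp3* and the oocyte factors *Figla* and *Nobox*.

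Other KH domain genes were mostly expressed in both libraries, with small differences. Of a list of 36, 28 were expressed. Their median log2 ratio was 0.13, and 2 of them passed 1.5-fold upward and 0 downward, beside 2.46% and 5.19% of all expressed genes. The 2 were *Igf2bp3*, an mRNA-binding protein gene (3.93 and 5.93), and *Mex3a*, an RNA-binding ubiquitin ligase gene (0.93 and 1.82). *Mex3a* counts as expressed only through the Eomes-overexpressing library, and *Igf2bp3* passed 1.5-fold narrowly. *Hnrnpk*, a nuclear RNA-binding protein gene, was at 239.97 and 290.77. At an FPKM of 20.9 and 22.37, *Khdc1a* and *Khdc1c* reached the range of *Fxr1* (21.97 and 26.67), a gene of the fragile X family.

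*Nr4a1*, the gene of Nur77, was at an FPKM of 9.43 (control) and 8.03 (Eomes), a log2 ratio of -0.23. Its paralogs *Nr4a2* (7.02 and 8.32) and *Nr4a3* (12.84 and 19.51) had log2 ratios of 0.25 and 0.60, so 1 of the 3 was more than 1.5-fold higher, beside 2.46% of all expressed genes. Among 15 caspases and caspase regulators 14 were expressed and 0 were past 1.5-fold in either direction, with a median log2 ratio of 0.02. Beside 2.46% higher and 5.19% lower over all expressed genes, that count says little about these genes. *Casp8*, which starts death receptor signalling, was at 54.7 and 52.42, and *Bid*, a link to the mitochondrial pathway, at 15.65 and 22.37.

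Markers of the labelled cells were present in both libraries. The 6 markers listed for CD8 T cells, which include general T cell genes, were all expressed. Their summed FPKM was 996.5 in the control and 735.8 in the Eomes-overexpressing library. *Cd8a* (181.81 and 99.1) was the only one more than 1.5-fold lower, beside 5.19% of all expressed genes. All 6 were lower in the Eomes-overexpressing library, with log2 ratios of -0.88 to -0.22 and a median of -0.34. Germ and embryonic cell markers, those of the cells best known for Khdc1 expression, summed to 0.47 and 0.48 over the 5 of 7 that were listed, with *Zp3* and *Zfp42* not listed. Of 3 natural killer cell markers *Ncr1* was not listed, and *Klrb1c* and *Eomes* itself were higher with Eomes overexpression. The markers of CD4 T cells summed to 0.12 and 0.15, those of B cells to 2.87 and 1.62, those of myeloid cells to 0.01 and 0.16, and those of dendritic cells to 2.01 and 1.32. B cell *Cd79b* (2.79 and 1.56) and dendritic cell *Xcr1* (1.79 and 1.11) were the expressed ones among these, and *Ms4a1*, *Lyz2* and *Csf1r* had no listed value. The part of other cells in the Khdc1 values was not tested beyond these levels.

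T-box factors such as Eomes recognize a short DNA element. The RefSeq promoter sequences (GRCm38.p6), which run from 250 bases before to 50 bases after a gene's start, held *Khdc1b* but neither *Khdc1a* nor *Khdc1c*. On neither strand did the *Khdc1b* window hold the T-box letters GGTGTGA or the letters TGTGGT of RUNX factors. These letters occur in 3.98% and 16.8% of 32851 promoter windows, respectively. The absence refers to these letters in this window only, and Eomes binding was not analysed here. The study also sequenced Eomes-bound DNA of such cultures and placed most binding in introns or between genes, far from start sites.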

How the data were processed

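Total RNA of 2 sorted OT-I cultures was sequenced on an Illumina HiSeq instrument, 1 library per condition. The authors filtered reads with SOAPnuke, mapped them with HISAT and Bowtie2 to mm10 and computed expression with RSEM. The deposited values are FPKM (called RPKM in the methods), 1 per gene symbol, from 0.01 upward, with no further scaling stated. Tool versions and the gene annotation were not given in the sources used here.

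Date-like entries in the symbol column were dropped, 20 from the control and 19 from the Eomes file. Log2 ratios used a floor of 0.01, also for genes without a listed value, and were computed with numpy 2.4.6, scipy 1.17.1 and pandas 2.3.3 under Python 3.11.15. With 1 library per condition no test between conditions is possible, and only descriptions are given. Expression and fold limits (FPKM of 1, 1.5-fold), gene lists and members were chosen with earlier results of these data known. Named genes were the Khdc1 genes, *Eomes*, expressed neighbours within 1 Mb (3 further neighbours were added after their values were seen), list members past 1.5-fold or defining their list, and the 10 genes nearest in log2 ratio.

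Gene models and transcripts were those of GENCODE vM21, and coding sequences were aligned globally with Biopython 1.88. Depth was read, as a step chosen after seeing the data, from values of 0.02 to 0.6 of genes with a single transcript under 1200 bases. It is approximate, and intervals and read numbers share that limit. The steps were tested on simulated data with known answers. For the depth, those data were built from whole reads, so that test does not check the assumption of whole reads. Alternatives were pseudocounts, scalings, centring by GC content, other limits and other windows. Some genes are not reported here.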

Additional observations from a re-analysis of the deposited data

How the results depend on the processing

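All 3 Khdc1 genes stayed more than 1.5-fold higher under every alternative that kept them in the count, and no log2 ratio changed sign. Since the genes were chosen for their large ratio, nothing is read from that. A minimum FPKM of 5 removed *Khdc1b* and left 2. The pseudocount moved the ratios most. With a pseudocount of 1, the log2 ratio was 3.56 for *Khdc1a*, 3.39 for *Khdc1c* and 1.40 for *Khdc1b*, and their median was 3.39. With a pseudocount of 0.1 it was 4.45, 4.08 and 3.50, and the median 4.08. *Khdc1b* thus had the lowest ratio of the 3 with either pseudocount, and the highest with the floor of 0.01. Scaling by a trimmed mean, to the median or to TPM shifted ratios by 0.03 or less, and centring by GC content by -0.19 for *Khdc1a* and *Khdc1c* and -0.15 for *Khdc1b*. The numbers of expressed genes more than 1.5-fold higher and lower were 118 and 285 with a pseudocount of 1, 1356 and 2088 with no minimum FPKM, 95 and 213 with a minimum of 5, and 69 and 175 at 2-fold. Another minimum FPKM also changes how many genes are counted, so these numbers cannot be compared as shares. Windows of 0.5 Mb and 2 Mb left 0 neighbours past 1.5-fold. No paired analysis was possible because each condition has 1 library. Depth limits *Khdc1b* most, with about 3 control reads, and the annotation behind the values limits the level of *Khdc1c*.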
